A study of Mus musculus with 12 samples.

Results

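Chemokines of the CXC family were examined in macrophages of the mouse synovium, the membrane that lines the joint, after exposure to calcitonin gene-related peptide (CGRP), a neuropeptide released by pain-sensing nerve fibres. The genes described are *Cxcl1*, *Cxcl2*, *Cxcl3*, *Cxcl5*, *Cxcl9*, *Cxcl10*, *Cxcl12*, *Cxcl14* and *Cxcl16*, taken by symbol from the count files. They are 9 of the 15 CXC ligand genes among the 26699 gene symbols counted. All 9 had enough reads to be tested, together with 11927 genes in all.

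Synovial explants from wild-type C57BL/6 mice received 100 nM CGRP or a control treatment during 4 h in culture. They were then digested with enzymes, and 2 populations of macrophages with MHC class II were sorted for bulk RNA-seq. The IAIE subset lacked CD11c, and the CD11c subset carried it. The groups were IAIE control, IAIE CGRP, CD11c control and CD11c CGRP, with 3 libraries each and 12 in all. Cells met CGRP inside the explant, so a sorted cell may have responded to the peptide or to its neighbours in the tissue, and these cannot be told apart. The labels give neither age nor sex, and they do not say whether libraries of a group came from separate mice, so p-values measure the spread between these libraries.

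The 12 libraries held between 2127191 and 5649698 counts, and values are given as CPM, counts scaled to a library total of 1000000 with TMM factors. A count of 3 in a library corresponded to between 0.534 and 1.34 CPM. *Itgax*, which encodes CD11c, ranged from 1.24 to 10.7 CPM in IAIE libraries, from 219 to 270.1 CPM in CD11c control and from 107 to 121 CPM in CD11c CGRP libraries. Macrophage markers were present in both subsets (8 of 8 listed genes, summed level 3788 to 9778 CPM). Of these 8, 7 were called lower and 0 higher in CD11c than in IAIE control libraries (10.9% of all tested genes called lower). With CGRP, 6 were called lower and 0 higher (8.51% of all tested genes called lower). *H2-Ab1*, an MHC class II chain, was at 3482 to 4248 CPM in IAIE control and 2085 to 2571 CPM in IAIE CGRP libraries. In the CD11c subset it was at 9957 to 11606 CPM in control and 6222 to 7231 CPM with CGRP. *H2-Ab1* was called lower with CGRP in both subsets, and *Itgax* in the CD11c subset alone. The CD11c sort also carried more transcripts of dendritic cell markers (summed level 617 to 771 CPM, against 85.8 to 168 CPM in IAIE libraries). Of 5 tested dendritic cell markers, 1 rose and 2 fell with CGRP in CD11c cells (10.9% of all tested genes called). *Ccr7* rose there from 202 to 260.0 CPM to 515 to 618 CPM, *Cd209a* fell from 290 to 304 CPM to 68.3 to 87.4 CPM and *Flt3* fell from 16.3 to 19.9 CPM to 1.49 to 7.29 CPM. Their part in the chemokine values of this subset was not tested.

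CXC chemokines are small secreted proteins that guide leukocytes through G protein-coupled receptors. *Cxcl1*, *Cxcl2*, *Cxcl3* and *Cxcl5* encode ligands of CXCR2 that attract neutrophils, whereas *Cxcl9* and *Cxcl10* encode interferon-inducible ligands of CXCR3, which is found on activated T and NK cells. *Cxcl12* is mostly a stromal product that retains CXCR4-bearing cells, *Cxcl14* encodes a ligand found in epithelia, and *Cxcl16* encodes a membrane-bound ligand of CXCR6 that can be shed by proteases.

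The first question was which of these transcripts changed with CGRP. In the IAIE subset *Cxcl3*, *Cxcl5* and *Cxcl10* rose, and none of the 9 fell. The same 3 genes rose in the CD11c subset, where *Cxcl12* also passed the threshold, an edgeR quasi-likelihood test with a Benjamini-Hochberg adjusted p under 0.05 over all tested genes. The 3 of 9 higher in IAIE cells stood beside 5.32% of all tested genes called higher and 9.21% called in either direction, and these 3 were also those without overlap between CGRP and control libraries (24.9% of all tested genes). The 4 of 9 in CD11c cells stood beside 6.29% called higher and 10.9% called in either direction, and these 4 and *Cxcl1* showed no overlap between groups (29.2% of all tested genes). The median log2 fold change of the 9 genes was 0.35 in the IAIE subset, against -0.023 over all tested genes, and 0.87 in the CD11c subset, against 0.0016. Neither median was stable. The IAIE value turned to -0.22 without IAIE CGRP replicate 2. The CD11c value is that of *Cxcl14*, whose own change did not pass, and it was 1.48, 0.52 and 0.35 when control replicate 1, 2 or 3 of that subset was left out and 0.51 when its CGRP replicate 1 was. Both contrasts measure RNA in a bulk sort, in which more cells of a kind and more RNA per cell cannot be told apart.

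**Figure D1:**
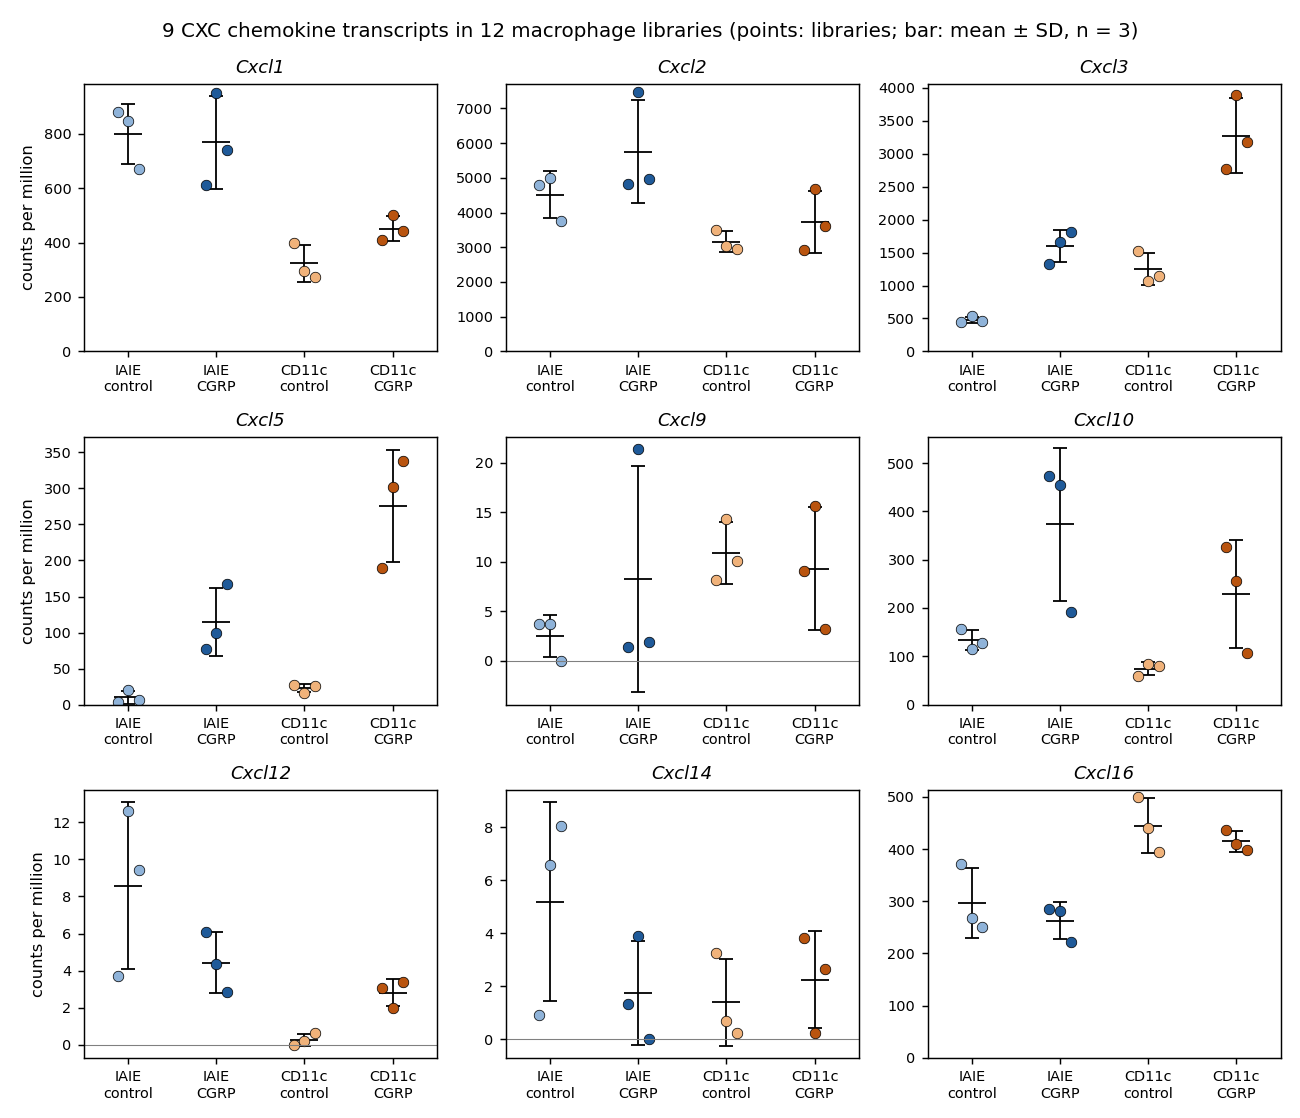
Level in CPM (vertical axes, linear) of the 9 transcripts in each library of the 4 groups on the horizontal axes, with the mean and SD of 3 libraries as bars. *Cxcl3*, *Cxcl5* and *Cxcl10* have every CGRP library above every control library of the same subset, and *Cxcl12* lies between 0 and 0.644 CPM in the CD11c control libraries.

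*Cxcl3*, a neutrophil attractant, had the smallest p of the 9 genes in IAIE cells. Its levels there were 445, 536 and 457 CPM in control replicates 1 to 3 and 1333, 1654 and 1809 CPM with CGRP. In CD11c cells they were 1519, 1066 and 1151 CPM in control and 2763, 3888 and 3171 CPM with CGRP. CGRP and control libraries did not overlap in either subset, whereas the IAIE libraries with CGRP overlapped the untreated CD11c libraries. The log2 fold change was 1.74 ± 0.16 (SE) in the IAIE subset (edgeR adjusted p 1.59e-06) and 1.39 ± 0.16 in the CD11c subset (edgeR adjusted p 7.49e-06). Leaving out any of the 12 libraries in turn kept both calls of *Cxcl3*, with values from 1.65 to 1.87 in IAIE cells and from 1.25 to 1.56 in CD11c cells.

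*Cxcl5*, which encodes another CXCR2 ligand, started from a much lower level than *Cxcl3* and rose in both subsets. It was counted at 3.41, 20.6 and 5.82 CPM in IAIE control libraries and at 77.0, 98.9 and 167 CPM in IAIE CGRP libraries. The CD11c libraries held 27.3, 16.6 and 25.5 CPM in control and 189, 301 and 338 CPM with CGRP. Every CGRP library was above every control library, also across subsets. The log2 fold change was 3.46 ± 0.42 in IAIE cells (edgeR adjusted p 2.53e-05) and 3.59 ± 0.39 in CD11c cells (edgeR adjusted p 5.45e-06). IAIE control replicate 2 was the highest of its group, and without it the IAIE value was 4.71.

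*Cxcl1* and *Cxcl2*, the classical early neutrophil attractants, were abundant in every library and did not pass the threshold in either subset. *Cxcl1* was at 878, 845 and 672 CPM in IAIE control and at 613, 949 and 741 CPM in IAIE CGRP libraries, so that the groups overlapped. Its CD11c levels were 399, 297 and 274 CPM in control and 409.6, 500.5 and 441 CPM with CGRP, and these groups did not overlap. The log2 fold change was -0.06 ± 0.17 in IAIE cells (95% interval -0.40 to 0.29) and 0.48 ± 0.17 in CD11c cells (0.13 to 0.83, edgeR adjusted p 0.0748). The CD11c value passed in limma-voom (adjusted p 0.0302), with the compared libraries alone (adjusted p 0.0495), with every counted gene kept (adjusted p 0.0110) and without CD11c control replicate 1 (adjusted p 0.0261).

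*Cxcl2* was the most abundant of the 9 transcripts by count. It stood at 4799, 4998 and 3755 CPM in IAIE control and 4835, 7478 and 4953 CPM in IAIE CGRP libraries. In the CD11c subset it stood at 3499, 3037 and 2937 CPM in control and 2914, 4673 and 3608 CPM with CGRP. The groups overlapped in both subsets. The log2 fold changes were 0.35 ± 0.17 (95% interval -0.02 to 0.72) and 0.24 ± 0.17 (-0.13 to 0.61), with edgeR adjusted p-values of 0.255 and 0.477. In IAIE cells *Cxcl2* passed when every counted gene was kept in the fit (adjusted p 0.0113).

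**Figure D2:**
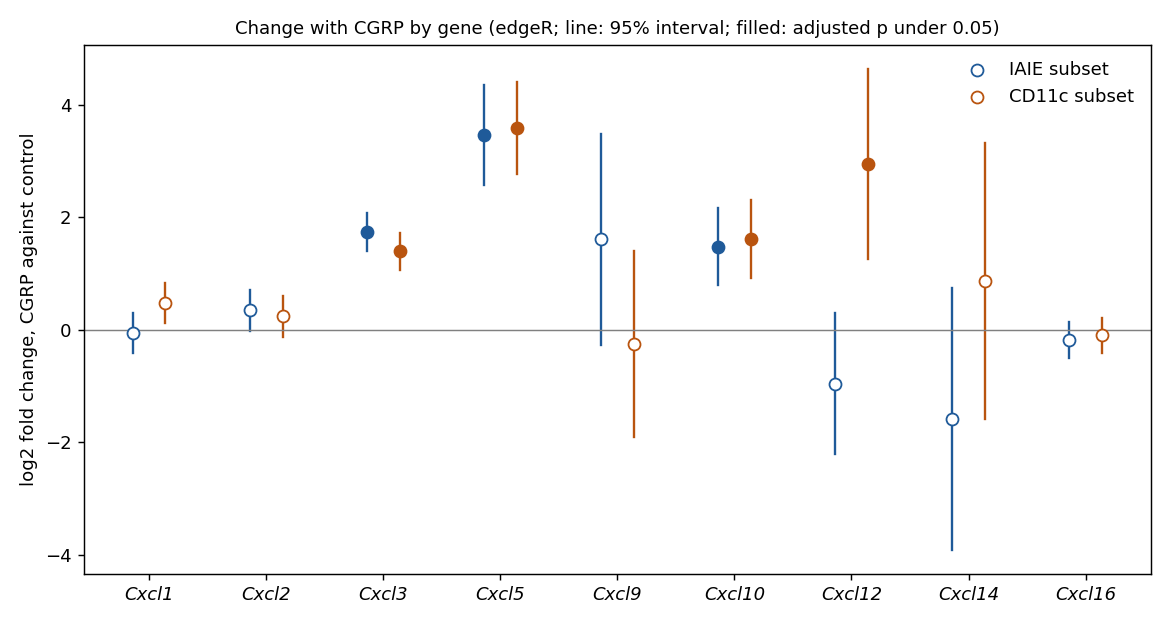
Log2 fold change of each gene with CGRP (vertical axis) in the IAIE and CD11c subsets, with the 95% interval as a line and filled points for an edgeR adjusted p under 0.05. *Cxcl3*, *Cxcl5* and *Cxcl10* have filled points in both subsets, while *Cxcl1*, *Cxcl2* and *Cxcl16* have intervals within 1 log2 unit of 0.

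The ratio of 2 transcripts within a library does not depend on scaling. *Cxcl3* counts divided by *Cxcl2* counts gave 0.0926 to 0.122 in IAIE control and 0.221 to 0.365 in IAIE CGRP libraries. The same ratio was 0.351 to 0.434 in CD11c control and 0.832 to 0.948 in CD11c CGRP libraries. *Cxcl3* therefore stood higher relative to *Cxcl2* with CGRP in every library of either subset, with no overlap within a subset. The 9 transcripts summed to between 4872 and 6807 CPM in control libraries and between 7055 and 10946 CPM with CGRP. *Cxcl2* made up 71.0% to 73.4% of that sum in IAIE control libraries, 61.2% to 68.3% in IAIE CGRP libraries, 58.2% to 61.3% in CD11c control libraries and 41.3% to 46.5% in CD11c CGRP libraries.

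Of the 9 genes, 4 lie in a run of neighbouring CXC ligand genes. On mouse chromosome 5 (GRCm38, GENCODE M21) the order of the CXC ligand genes is *Cxcl5* (90759360 to 90761624), *Ppbp* (90768518 to 90770063), *Pf4* (90772435 to 90773383), *Cxcl3* (90786103 to 90789600), *Cxcl15* (90794534 to 90803067), *Cxcl1* (90891241 to 90893115) and *Cxcl2* (90903871 to 90905938), all on the plus strand. *Ppbp* and *Pf4* encode the platelet chemokines CXCL7 and CXCL4. The first 4 genes in this order rose with CGRP in both subsets, *Cxcl15* had too few counts to be tested, and *Cxcl1*, which lies 88173 bases beyond *Cxcl15*, and the adjacent *Cxcl2* did not pass. *Cxcl9* (92321347 to 92328079) and *Cxcl10* (92346638 to 92348889) lie further along the chromosome on the minus strand. *Cxcl12* is on chromosome 6 (117168535 to 117181367, plus strand), *Cxcl14* on chromosome 13 (56288643 to 56296551, minus strand) and *Cxcl16* on chromosome 11 (70453983 to 70459984, minus strand). *Cxcl3* shares 5.46% of its 31-base transcript words with *Cxcl2*, which shares 7.59% of its own with *Cxcl3*, so a small part of their counts is uncertain.

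**Figure D3:**
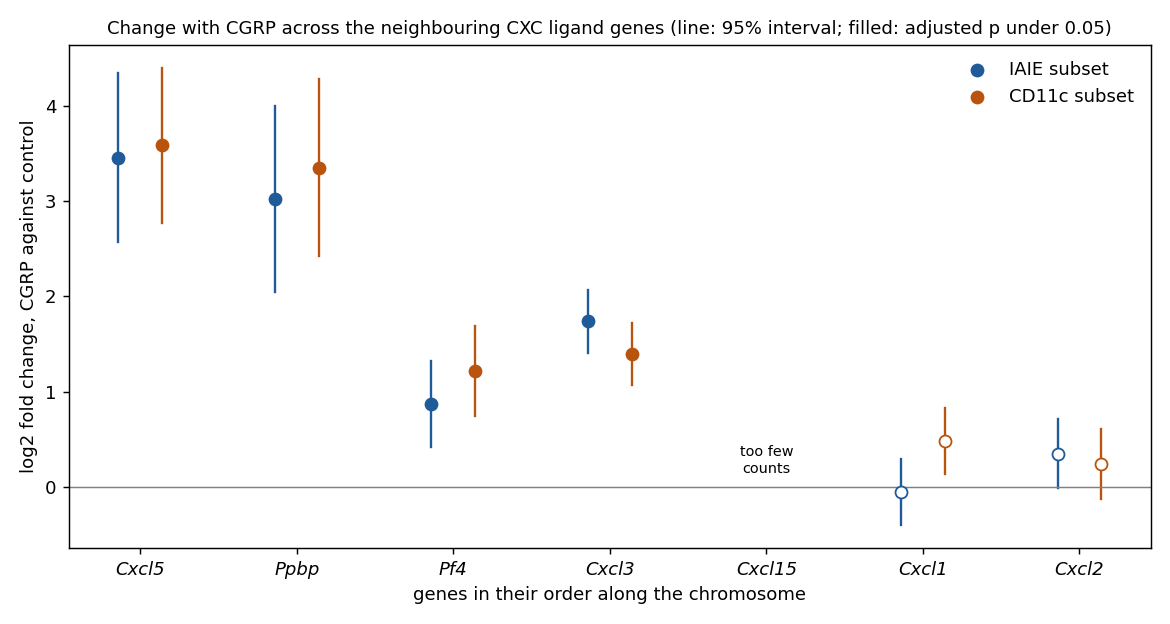
Log2 fold change with CGRP (vertical axis, line for the 95% interval) for the neighbouring CXC ligand genes in chromosomal order (horizontal axis, not to distance), with filled points for an edgeR adjusted p under 0.05. Points for *Cxcl5*, *Ppbp*, *Pf4* and *Cxcl3* are filled in both subsets, and those for *Cxcl1* and *Cxcl2* are open.

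The sequences before the start sites of the neighbouring genes are shown because some of these genes moved with CGRP and others did not. Each window is the 250 bases upstream of the start of transcription in RefSeq (GRCm38.p6), printed 5′ to 3′ on the strand of the gene, with capitals for motif matches. RefSeq windows were matched for 7 of the 9 genes, all but *Cxcl5* and *Cxcl16*.
*Cxcl1*, chr5:90890995-90891244, plus strand: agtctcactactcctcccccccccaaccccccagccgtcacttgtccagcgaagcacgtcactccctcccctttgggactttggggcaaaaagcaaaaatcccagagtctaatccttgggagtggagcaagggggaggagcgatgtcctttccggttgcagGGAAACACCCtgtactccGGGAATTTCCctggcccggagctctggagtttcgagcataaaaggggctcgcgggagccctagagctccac
*Cxcl2*, chr5:90903649-90903898, plus strand: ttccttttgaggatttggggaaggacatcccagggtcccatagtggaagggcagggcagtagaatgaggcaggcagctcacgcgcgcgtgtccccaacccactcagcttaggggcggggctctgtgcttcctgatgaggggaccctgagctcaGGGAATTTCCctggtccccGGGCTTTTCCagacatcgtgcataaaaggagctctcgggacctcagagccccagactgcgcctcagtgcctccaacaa
*Cxcl3*, chr5:90785851-90786100, plus strand: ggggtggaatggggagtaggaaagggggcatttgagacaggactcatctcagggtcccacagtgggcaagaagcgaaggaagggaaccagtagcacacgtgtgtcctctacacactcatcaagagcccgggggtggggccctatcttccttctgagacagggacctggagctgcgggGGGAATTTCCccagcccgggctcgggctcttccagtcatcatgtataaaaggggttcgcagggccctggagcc
*Cxcl9*, chr5:92328080-92328329, minus strand: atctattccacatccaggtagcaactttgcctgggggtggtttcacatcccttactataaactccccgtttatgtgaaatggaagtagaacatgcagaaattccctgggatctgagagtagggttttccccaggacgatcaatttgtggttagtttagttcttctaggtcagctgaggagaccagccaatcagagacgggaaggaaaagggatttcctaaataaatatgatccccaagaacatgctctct
*Cxcl10*, chr5:92348890-92349139, minus strand: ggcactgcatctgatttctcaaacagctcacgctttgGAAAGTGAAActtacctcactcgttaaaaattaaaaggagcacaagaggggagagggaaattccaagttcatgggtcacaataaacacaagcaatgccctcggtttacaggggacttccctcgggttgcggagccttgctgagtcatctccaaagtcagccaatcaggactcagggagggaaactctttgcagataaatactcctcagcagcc

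A total of 4 motifs were searched on both strands. The NF-kB-like motif, GGG and TTTCC with any 2 bases between them, was present in 1.41% of 32851 promoter windows of the same length. It occurred in *Cxcl1* at -89 to -80 and -71 to -62 relative to the start site, in *Cxcl2* at -97 to -88 and -78 to -69, and in *Cxcl3* at -73 to -64. The site nearest to the start of *Cxcl1*, the outer site of *Cxcl2* and the single site of *Cxcl3* had the same 10 bases, GGGAATTTCC. Thus the motif was found in *Cxcl3*, which rose with CGRP, and in *Cxcl1* and *Cxcl2*, which did not pass. The windows of *Ppbp* and *Pf4*, which rose in both subsets, held no match to any of the 4 motifs. The interferon-stimulated response element-like motif, TTTC and TTTC with any 2 bases between them (2.98% of windows) matched *Cxcl10* at -213 to -204, as GAAAGTGAAA on the printed strand, and also matched *Cxcl14*. The STAT-like motif TTCNNNGAA (7.02% of windows) matched only *Cxcl14* among these 7 windows, and the full cAMP response element TGACGTCA (1.55% of windows) matched none of them. A match gives letters in a window and not a bound site. Only the spellings given here were searched, so a window without a match, such as that of *Cxcl10* for NF-kB, may hold a site spelled otherwise.

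*Cxcl10*, an interferon-inducible attractant of T cells, rose in both subsets. It was at 157, 116 and 128 CPM in IAIE control and at 473, 455 and 191 CPM in IAIE CGRP libraries. The CD11c values were 58.3, 84.2 and 80.2 CPM in control and 326, 255 and 107 CPM with CGRP. The groups did not overlap within either subset, and replicate 3 was the lowest CGRP library of both. The log2 fold change was 1.48 ± 0.33 in IAIE cells (edgeR adjusted p 0.00590) and 1.62 ± 0.33 in CD11c cells (edgeR adjusted p 0.00265). Of its merged exons, 5.91% overlap *Art3* on the opposite strand, and the strand setting of the counting is not given.

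*Cxcl9*, the other CXCR3 ligand measured, was far lower and gave no such pattern. It was at 3.72, 3.73 and 0 CPM in IAIE control and at 1.32, 21.4 and 1.89 CPM in IAIE CGRP libraries. In CD11c cells it was at 8.16, 14.3 and 10.1 CPM in control and at 9.01, 15.6 and 3.20 CPM with CGRP. Its fitted change in IAIE cells, 1.61 ± 0.90 (edgeR adjusted p 0.318), rested on replicate 2, without which it was -0.68. In CD11c cells it was -0.25 ± 0.79 (edgeR adjusted p 0.905). *Cxcl11*, the further CXCR3 ligand and annotated as a polymorphic pseudogene, did not exceed 0.931 CPM in control libraries and lay between 0.712 and 4.46 CPM with CGRP, and its changes did not pass (edgeR adjusted p 0.338 and 0.0949). *Gm2673* on the opposite strand overlaps 41.7% of its exons.

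*Cxcl12*, the CXCR4 ligand, was measured at a low level and passed the threshold in the CD11c subset alone, while the difference between the subsets did not pass (edgeR adjusted p 0.149). It was at 3.72, 12.6 and 9.40 CPM in IAIE control and at 6.09, 4.37 and 2.83 CPM in IAIE CGRP libraries, which overlapped (log2 fold change -0.96 ± 0.60, edgeR adjusted p 0.381). The CD11c control libraries held 0, 1 and 3 counts, all at or under the floor, and the CD11c CGRP libraries held 16, 8 and 19 counts, or 3.07, 1.98 and 3.38 CPM. With the control group set to the mean floor of 3 counts per library, CD11c cells given CGRP held *Cxcl12* at least 3.28-fold higher (edgeR adjusted p 0.0217). The call was lost in limma-voom (adjusted p 0.106), and in 4 of the 12 fits without a library, those without CD11c control replicate 1 or 2 or CD11c CGRP replicate 1 or 3 (adjusted p 0.0531 to 0.0889). It was also lost in edgeR with a required log2 change above 1 (adjusted p 0.214). *Cxcl12* was not among the called genes with the compared libraries alone or with at least 10 counts required in every library.

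*Cxcl12* is a known fibroblast transcript, and fibroblast markers were counted beside it. Of 8 tested genes of the fibroblast list (10 listed), 3 fell and 1 rose with CGRP in IAIE cells, and 3 rose and 1 fell in CD11c cells. Over all tested genes, 9.21% were called in IAIE and 10.9% in CD11c cells. The collagen genes *Col1a1*, *Col1a2* and *Col3a1* were the 3 that fell in IAIE cells, where control and CGRP libraries overlapped for each. IAIE control replicate 2 was the highest, at 670, 284 and 356 CPM. The other IAIE control replicates held 27.6 to 105 CPM of these genes, and the IAIE CGRP libraries 14.1 to 53.5 CPM. In CD11c cells *Dcn*, which encodes the matrix proteoglycan decorin, rose by 4.88 ± 0.84 (edgeR adjusted p 5.77e-04) and *Col3a1* by 2.35 ± 0.75 (edgeR adjusted p 0.0489), while *Fn1* fell. *Pdpn*, which macrophages can also express, rose in both subsets. The summed level of the whole list was 1489 to 3487 CPM in IAIE control, 1154 to 3961 CPM in IAIE CGRP, 5715 to 6675 CPM in CD11c control and 2956 to 3575 CPM in CD11c CGRP libraries, and no listed gene was at 0 throughout a group. *Fn1* alone was at 5498 to 6398 CPM in CD11c control libraries. Without *Fn1* and *Pdpn*, an alternative chosen after the values were seen, the other 8 summed to 169 to 1383, 52.2 to 1571, 24.5 to 35.6 and 74.9 to 388 CPM in the same order. The highest IAIE CGRP sum came from replicate 1, where *Prg4*, the lubricin gene, was at 1433 CPM. Mural cell markers also differed in CD11c cells, where 5 of 6 rose (6.29% of all tested genes called higher). Their sum was 26.4 to 32.6 CPM in control and 55.4 to 359 CPM with CGRP. That sum was 359, 55.4 and 194 CPM in CD11c CGRP replicates 1 to 3. In replicate 2 *Acta2* and *Myh11* were at 0 CPM, and *Cspg4* was at 50.7 CPM. The part of fibroblast or mural RNA in the *Cxcl12* values was not tested.

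**Figure D4:**
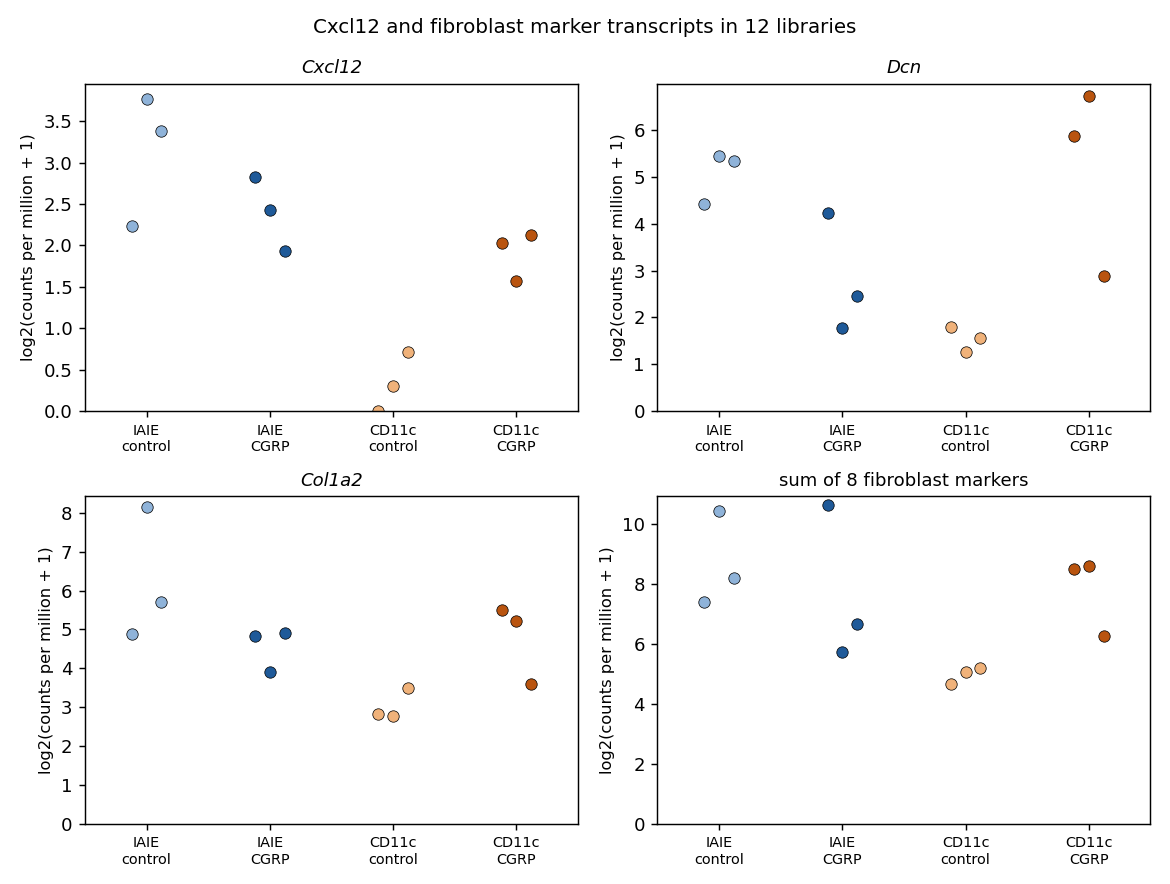
Log2(CPM + 1) (vertical axes) of *Cxcl12*, of *Dcn* and *Col1a2*, and of the sum of 8 fibroblast markers in the 3 libraries of each group (horizontal axes). In the CD11c subset each panel is lowest in the control libraries, where the sum lies between 24.5 and 35.6 CPM.

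*Cxcl14* was at the margin of detection. Its levels were 0.931, 6.59 and 8.06 CPM in IAIE control, 1.32, 3.89 and 0 CPM in IAIE CGRP, 3.26, 0.701 and 0.215 CPM in CD11c control and 3.84, 0.248 and 2.67 CPM in CD11c CGRP libraries. All groups overlapped. The log2 fold changes with CGRP were -1.58 ± 1.11 and 0.87 ± 1.17 (edgeR adjusted p 0.453 and 0.742), so a change was not detectable at this depth. Keratinocyte markers, listed because *Cxcl14* is an epithelial transcript, summed to at most 5.27 CPM in any library.

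*Cxcl16*, whose product tethers and attracts CXCR6-bearing lymphocytes, was abundant and did not pass in either subset. IAIE libraries held 372, 268 and 249.8 CPM in control and 285, 280.4 and 221 CPM with CGRP. CD11c libraries held 499, 441 and 394 CPM in control and 437, 410.1 and 397 CPM with CGRP. The groups overlapped within each subset, and the log2 fold changes were -0.18 ± 0.15 (95% interval -0.50 to 0.14) and -0.10 ± 0.15 (-0.41 to 0.22). *Zmynd15* on the opposite strand overlaps 18.3% of the merged exons of *Cxcl16*.

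Whether CGRP acted differently in the 2 subsets was tested by the interaction, the effect in CD11c cells minus that in IAIE cells. None of the 9 genes passed in edgeR, DESeq2 or limma-voom, and 0.151% of all tested genes did so in edgeR. At an unadjusted p under 0.05, 2 of the 9 did in each of these tools, and the share of all tested genes at that level is not given here. In edgeR the 2 genes were *Cxcl1* (0.54, 95% interval 0.04 to 1.03, adjusted p 0.526) and *Cxcl12* (fitted value 3.91, adjusted p 0.149), and the latter includes the control group at the floor. The interaction was -0.34 for *Cxcl3* (-0.80 to 0.12), 0.13 for *Cxcl5* (-1.07 to 1.33) and 0.14 for *Cxcl10* (-0.82 to 1.09), so that differences of up to about these bounds could not be resolved.

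The subsets were next compared without CGRP. *Cxcl3* and *Cxcl16* were higher and *Cxcl1*, *Cxcl2* and *Cxcl12* lower in CD11c than in IAIE control libraries, 5 of 9 genes beside 21.2% of all tested genes called, 10.2% higher and 10.9% lower. The log2 differences were 1.38 ± 0.16 for *Cxcl3* (edgeR adjusted p 4.27e-06), 0.58 ± 0.15 for *Cxcl16* (edgeR adjusted p 0.00958) and -1.31 ± 0.17 for *Cxcl1* (edgeR adjusted p 1.62e-05). *Cxcl12* was at least 10.02-fold lower in CD11c cells (edgeR adjusted p 3.46e-04). *Cxcl2* was lower by a smaller amount (-0.52 ± 0.18, edgeR adjusted p 0.0413), and that call was lost with 1 surrogate variable (adjusted p 0.101) and in 6 fits without a library (adjusted p up to 0.172), which were those without IAIE control replicate 1 or 2, any 1 of the CD11c control replicates, or CD11c CGRP replicate 3. For 7 of the 9 genes the groups did not overlap, beside 34.2% of all tested genes. *Cxcl10* (-0.84 ± 0.33, edgeR adjusted p 0.0826) and *Cxcl9* (2.03 ± 0.89, edgeR adjusted p 0.121) were among those 7 without passing. Both were called in a fit to the compared libraries alone (adjusted p 0.00241 for *Cxcl10* and 0.0347 for *Cxcl9*), with the block within treatment (adjusted p 9.61e-04 and 0.0297) and with every counted gene kept. *Cxcl9* also passed with the replicate number as a block (adjusted p 0.0287) and without IAIE CGRP replicate 2 (adjusted p 0.0408). *Cxcl10* also passed without replicate 3 of IAIE CGRP (adjusted p 0.0390) or of CD11c CGRP (adjusted p 0.0347). *Cxcl5* (1.14 ± 0.45, edgeR adjusted p 0.0812) passed without IAIE control replicate 2, at 2.37 (adjusted p 0.00174). It also passed with the block within treatment (adjusted p 0.0371) and with every counted gene kept (adjusted p 6.46e-07).

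With CGRP, *Cxcl3*, *Cxcl5* and *Cxcl16* were higher and *Cxcl1* and *Cxcl2* lower in CD11c cells, again 5 of 9 genes, beside 16.9% of all tested genes called, 8.36% higher and 8.51% lower. The differences were 1.03 ± 0.16 for *Cxcl3* (edgeR adjusted p 8.39e-05), 1.27 ± 0.34 for *Cxcl5* (edgeR adjusted p 0.0131) and 0.66 ± 0.15 for *Cxcl16* (edgeR adjusted p 0.00413). *Cxcl1* differed by -0.77 ± 0.17 (edgeR adjusted p 0.00265) and *Cxcl2* by -0.63 ± 0.18 (edgeR adjusted p 0.0170). These 5 genes were also those whose groups did not overlap, beside 34.8% of all tested genes. *Cxcl5* was not called in DESeq2 (adjusted p 0.143) or in 3 fits without a library, those without IAIE CGRP replicate 1 or 2 or CD11c CGRP replicate 3 (adjusted p up to 0.0738). *Cxcl2* was lost without IAIE CGRP replicate 2 or CD11c CGRP replicate 1 or 3 (adjusted p up to 0.158). *Cxcl10* did not pass (-0.70 ± 0.32, edgeR adjusted p 0.152). It was called with same-numbered libraries paired (adjusted p 0.00162), with every counted gene kept (adjusted p 1.32e-04), in limma-voom (adjusted p 0.0447), and without IAIE CGRP replicate 3 (adjusted p 0.0206) or CD11c CGRP replicate 1 (adjusted p 0.0406). The controls and the CGRP libraries of each subset enter several of these contrasts, which are therefore not independent.

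Levels were compared between genes per kilobase of merged exons. *Cxcl2* was the highest in every group, from 1527 ± 145 CPM per kb in CD11c control to 2783 ± 722 CPM per kb in IAIE CGRP libraries. In IAIE control libraries *Cxcl1* came next at 426 ± 59.1 CPM per kb, above *Cxcl3* at 137 ± 14.2 CPM per kb, with no overlap. With CGRP *Cxcl3* (457 ± 69.5 CPM per kb) and *Cxcl1* (409 ± 90.4 CPM per kb) overlapped in IAIE cells. In CD11c cells *Cxcl3* was above *Cxcl1* in control (356 ± 68.9 against 172 ± 35.5 CPM per kb) and with CGRP (936 ± 163 against 240.2 ± 24.6 CPM per kb). *Cxcl9*, *Cxcl12* and *Cxcl14* had the lowest 3 means in every group, at most 3.59 CPM per kb, although *Cxcl5* overlapped *Cxcl14* in IAIE control libraries, and neighbours among them overlapped in each group other than CD11c control. *Cxcl5* held rank 6 in CD11c control and rank 4 in CD11c CGRP libraries, where it overlapped *Cxcl16*.

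**Figure D5:**
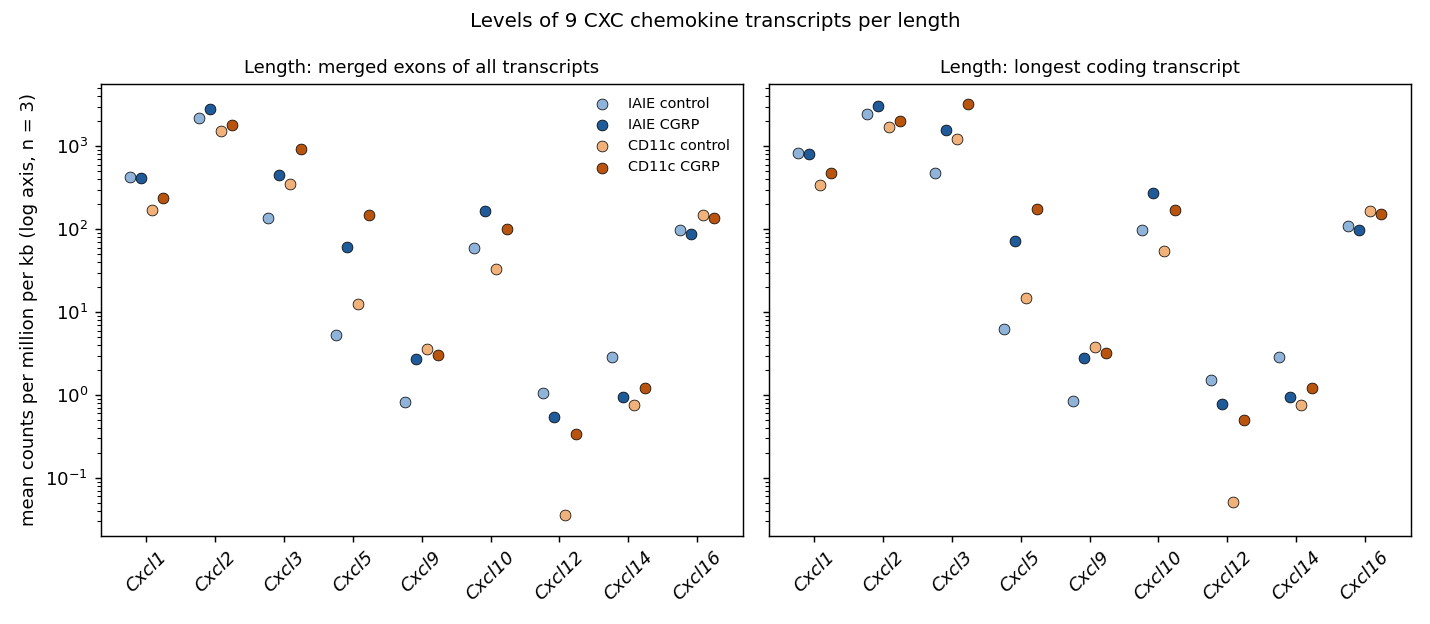
Mean level of each gene in CPM per kb (vertical axis, logarithmic, 3 libraries a group) for the 4 groups, with length taken from merged exons on the left and from the longest coding transcript on the right. On the left *Cxcl2* is highest in every group, and on the right *Cxcl3* is above it in CD11c CGRP libraries.

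The merged exons of *Cxcl1*, *Cxcl2*, *Cxcl3* and *Cxcl10* form 1 block each because annotated transcripts retain introns. With the length of the longest coding transcript, an alternative chosen after the values were seen, *Cxcl3* exceeded *Cxcl2* in CD11c CGRP libraries (3222 ± 561 against 2007 ± 476 CPM per kb, no overlap). *Cxcl3* was then also above *Cxcl1* in IAIE CGRP libraries with no overlap.

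The other CXC ligands were summarised as a list of 6 genes, of which 4 could be tested and 2 rose in both subsets. Over all tested genes, 5.32% were called higher in IAIE and 6.29% in CD11c cells. *Ppbp* was at 6.51, 4.87 and 2.24 CPM in IAIE control and at 31.2, 39.1 and 44.9 CPM in IAIE CGRP libraries, and at 6.94, 9.82 and 0.858 CPM in CD11c control and 51.2, 56.9 and 67.6 CPM in CD11c CGRP libraries. Its log2 fold changes were 3.02 ± 0.47 and 3.35 ± 0.45 (edgeR adjusted p 3.13e-04 and 4.13e-05). *Pf4* rose by 0.87 ± 0.22 in IAIE cells, from 334 ± 69.5 to 613 ± 71.4 CPM (SD), and by 1.22 ± 0.23 in CD11c cells, from 67.8 ± 17.0 to 156 ± 50.9 CPM (edgeR adjusted p 0.0127 and 0.00115). Both are known platelet transcripts. Other platelet markers, a list written after these values were seen, summed to between 9.38 and 19.5 CPM per library. Of 8 listed genes 7 were counted, with *Gp6* or *Treml1* at 0 in each group. Of the 3 that could be tested none passed in edgeR or had an unadjusted p under 0.05 in either subset. The part of platelet RNA in the *Ppbp* and *Pf4* values was not tested.

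Among 8 CXC receptors and scavengers, 4 could be tested. *Cxcr4*, the receptor of CXCL12, was at 181 to 217 CPM in IAIE control and 120.0 to 151 CPM in IAIE CGRP libraries and fell (-0.56 ± 0.16, edgeR adjusted p 0.0311). In CD11c cells it differed by -0.43 ± 0.16 (edgeR adjusted p 0.0956). *Ackr3*, a scavenger of CXCL12, ranged from 0 to 6.14 CPM and did not pass. *Cxcr2*, the receptor of the neutrophil attractants, reached at most 10.5 CPM.

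Genes of the pathways known to act upstream of these chemokines were counted as lists. Over all tested genes, 9.21% were called with CGRP in IAIE and 10.9% in CD11c cells, with 5.32% and 6.29% called higher. Of 12 interferon signalling genes, all tested, 4 rose and 1 fell in IAIE cells, and 5 rose and 2 fell in CD11c cells. *Irf7*, an interferon-induced transcription factor, rose by 2.33 ± 0.30 in IAIE and 2.46 ± 0.30 in CD11c cells (edgeR adjusted p 4.77e-05 and 1.92e-05). The median of this list was -0.00051 in IAIE and 0.18 in CD11c cells. Of 14 NF-kB and inflammatory genes, 1 rose and 3 fell in IAIE cells, and 2 rose and none fell in CD11c cells. An unadjusted p under 0.05 was found for 7 of them in IAIE and 6 in CD11c cells, and the share of all tested genes at that level is not given here. *Nfkb1*, which encodes the p105 and p50 subunits of NF-kB, fell in IAIE cells from 852 to 899 CPM in control to 427 to 483 CPM with CGRP (-0.96 ± 0.11, edgeR adjusted p 1.78e-05) and was at 914 to 1140.1 CPM with CGRP in CD11c cells, where it did not pass (-0.07 ± 0.11, edgeR adjusted p 0.782). *Tlr4*, the receptor for bacterial lipopolysaccharide, rose in both (0.83 ± 0.18 and 1.16 ± 0.19).

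Chemokines are trimmed and shed by proteases, and 6 of 8 such genes could be tested. *Mmp12*, the macrophage elastase that cleaves neutrophil-attracting chemokines, rose by 2.57 ± 0.23 in IAIE cells, from between 11.8 and 23.7 CPM to between 83.6 and 99.9 CPM. In CD11c cells it rose by 2.57 ± 0.20, from between 80.4 and 136 CPM to between 627 and 705 CPM (edgeR adjusted p 1.21e-06 and 2.04e-07). *Dpp4*, a peptidase that inactivates several CXC ligands, fell in CD11c cells (-2.07 ± 0.44, edgeR adjusted p 0.00322) and was at 4.48 CPM or less in the IAIE libraries. *Adam10* and *Adam17*, the sheddases of CXCL16, did not pass in either subset.

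Neutrophils are themselves a source of *Cxcl2*, and their markers were counted beside it. The summed level of 8 neutrophil markers was 51.5 to 348 CPM in IAIE control, 96.9 to 252 CPM in IAIE CGRP, 18.8 to 449 CPM in CD11c control and 18.2 to 206 CPM in CD11c CGRP libraries. None of the 7 tested genes passed in IAIE cells, none had an unadjusted p under 0.05 there, and *Csf3r* fell in CD11c cells. *Ly6g*, a defining marker, did not exceed 1.29 CPM in any library. Other listed markers were higher in single libraries. *Ngp* was at 254 CPM in CD11c control replicate 3 and 168 CPM in IAIE control replicate 2, and *S100a9* at 90.3 and 63.1 CPM in the same libraries. The part of neutrophil RNA in the chemokine values was not tested.

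The genes whose pattern over the 12 libraries was most like each chemokine were found by the root mean square (RMS) difference of centred log2(CPM + 1) values over 8457 genes, those averaging 5 CPM or more. For *Cxcl3* they were *Fam162a* and *Ptgs2* (RMS difference 0.293 and 0.296, against 1.005 for the spread of *Cxcl3* itself), and for *Cxcl10* they were *Mxd1* and *Rin2* (0.324 and 0.339, against 0.948). For *Cxcl5* they were *Gys1* and *Ankrd37*, which were less alike (0.727 and 0.729, against 2.01). *Cxcl1* was nearest to *Clec5a* (0.156, against 0.581), *Cxcl2* to *Vat1* (0.162, against 0.389), *Cxcl16* to *Rpl23a-ps3* (0.101, against 0.365) and *Cxcl9* to *Ntng2* (0.731, against 1.27). Among the 7 chemokines averaging 5 CPM or more the closest pair was *Cxcl1* and *Cxcl2*, at 0.312. All these values share the same 12 libraries and scaling.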

How the data were processed

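RNA from 12 libraries of sorted synovial macrophages was sequenced as stranded total RNA with paired reads. The authors trimmed the reads (Trim Galore, with 3 bases cut from the first read), mapped them with HISAT2 (mm10) and summarised them with featureCounts; versions, annotation, strand setting and use of molecular identifiers are not given in the sources used here. The deposited values are raw counts per gene symbol. The combined table repeats the 12 libraries, and its 6 further columns were not used.

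Genes were kept with filterByExpr (minimum count 10, minimum total 15), scaled by TMM and fitted in 1 edgeR 4.0.16 quasi-likelihood model (R 4.3.3) with a mean for each of the 4 groups, from which 5 contrasts were taken. Where no tool is named, an adjusted p comes from that model. Alternatives were RLE and upper-quartile scaling, other count filters, replicate blocks, limma-voom (limma 3.58.1) with quality weights, DESeq2 1.42.0, 1 surrogate variable (sva 3.50.0), a fit to only the libraries compared, other thresholds and leaving out each library. Floors of 3 counts cover counting error only, and PCR copies are not independent molecules.

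As a check of pairing, IAIE and CD11c libraries with CGRP that carry the same number deviated together (correlation 0.331, 0.117 and 0.191 for replicates 1 to 3, 5411 genes). These libraries were treated as pairs only in the alternative with a block within treatment. The main model has no block, so its values between CGRP subsets are unpaired. The labels do not say what a number marks, and the other comparisons did not have every correlation over 0.1.

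The chemokines and gene lists were chosen with earlier results of these data known. Named genes are the 9 chemokines, the sort markers *Itgax* and *H2-Ab1*, up to 2 genes per list with the smallest p for CGRP, and the 2 most similar genes per chemokine; 1 gene that the rule names is not reported here. Other ligands, fibroblast, mural, dendritic, neutrophil and platelet genes, *Cxcr2*, *Adam10* and *Adam17* were named after their values were seen. Listed genes of marker sets without a row in the files were not analysed here.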

Additional observations from a re-analysis of the deposited data

Results flagged for a closer look

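The effect of CGRP differed between the subsets, by the interaction term of the edgeR model, for 2 of the genes counted beside the chemokines. For *Dcn* the CD11c effect minus the IAIE effect was 6.96 on the log2 scale (edgeR adjusted p 0.00898); its levels were 20.5, 42.4 and 39.4 CPM in IAIE control, 17.7, 2.43 and 4.53 CPM in IAIE CGRP, 2.45, 1.40 and 1.93 CPM in CD11c control and 57.3, 104 and 6.41 CPM in CD11c CGRP libraries. For *Nfkb1* the same difference was 0.88 (edgeR adjusted p 0.0180), with a fall in IAIE cells and no call in CD11c cells. The cause of either difference was not tested.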

How the results depend on the processing

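*Cxcl3*, *Cxcl5* and *Cxcl10* kept their CGRP calls in both subsets under every scaling, count filter, block, tool and left-out library tried; a required log2 change above 1 removed *Cxcl10* in both and *Cxcl3* in CD11c cells. That requirement left 1 of the 9 genes called with CGRP in CD11c cells, 1 between subsets in control and 0 with CGRP. Keeping every gene with at least 1 count called 5 with CGRP in IAIE cells and 8 between control subsets. The share of all genes called under that filter is not given here, so these counts cannot be set against other genes. Leaving out each library gave 3 to 4 genes with CGRP in CD11c cells, 4 to 6 between control subsets and 3 to 6 between CGRP subsets, the lowest without IAIE CGRP replicate 2 or CD11c CGRP replicate 3. Over all genes the same fits called 929 to 1377, 2032 to 2532 and 1456 to 2104 in the same order. The cause of these moves was not tested.

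Signs turned only for values that were not called. With CGRP in IAIE cells, *Cxcl1* became 0.0207 with every counted gene, and leaving out libraries gave -0.23 to 0.0947 for *Cxcl1*, -0.68 to 2.12 for *Cxcl9* and -0.26 to 0.0242 for *Cxcl16*. *Cxcl9* in CD11c cells ranged from -0.84 to 0.14. For the interaction, limma-voom gave -0.10 for *Cxcl5* and -0.12 for *Cxcl10*, and leaving out libraries gave -0.31 to 0.12 for *Cxcl2*, -1.13 to 0.56 for *Cxcl5*, -2.46 to 0.43 for *Cxcl9*, -0.26 to 0.44 for *Cxcl10* and -0.12 to 0.16 for *Cxcl16*. Between CGRP subsets, *Cxcl14* was -1.12 with 1 surrogate variable and -0.19 to 1.86 without a library, and *Cxcl9* was -0.42 to 2.48.

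With the replicate number as a block, 3 and 4 genes were called with CGRP in IAIE and CD11c cells, 0 for the interaction, 6 between control subsets and 5 between CGRP subsets. With the block within treatment, which pairs same-numbered subsets, 8 were called between control subsets and 6 between CGRP subsets. The shares of all genes called between subsets under these blocks are not given here, so these counts cannot be set against other genes. Over all genes, the 18 interaction calls became 36 and 52 under these blocks, 171 with every counted gene, 5 with at least 10 counts, 38 with a surrogate variable, 79 in DESeq2 (whose median interaction over all genes was 0.13, against 0.015), 2 in limma-voom, 42 at an adjusted p under 0.1, 9 above the log2 change of 1 and 6 to 29 without a library. That required change also cut the calls from 1099 to 79 with CGRP in IAIE cells, from 1298 to 153 in CD11c cells, from 2526 to 347 between control subsets and from 2012 to 277 between CGRP subsets. Without IAIE CGRP replicate 2 there were 722 CGRP calls in IAIE cells. Depth limits *Cxcl9*, *Cxcl12* and *Cxcl14*, which had as few as 0 counts in a library.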
